A study of Homo sapiens with 6 samples.

Results

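The 42 genes described here are interferon-stimulated genes, which a cell transcribes when interferon reaches its surface or when it detects viral nucleic acid. They were chosen by gene symbol, and all 42 were found among the 23228 gene names of the expression table. RNA-seq of polyA RNA had been performed in SaOS2 cells, an osteosarcoma line that is null for RB and p53, carrying a vector from which doxycycline induces the CDK inhibitor p21. The p21 OFF group was 3 libraries of untreated cells, and the p21 ON group was 3 libraries of cells given 1 μg/ml doxycycline for 24 h. Both groups carried the vector in one engineered line, and no library of doxycycline-treated cells without the vector was analysed here, so the effects of p21 and of doxycycline cannot be told apart. The labels do not say whether the 3 libraries of a group came from separate cultures, so the p-values measure the spread between these libraries.

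Type I interferon binds the receptor pair IFNAR1 and IFNAR2, whose kinases JAK1 and TYK2 then switch on STAT proteins. STAT2 joins IRF9 in a complex that binds the interferon-stimulated response element (ISRE) in target promoters, while interferon gamma acts through the gamma-activated site (GAS). The products block viral RNA (the IFIT, OAS and MX families), attach the ubiquitin-like protein ISG15 to other proteins, or carry peptides to the cell surface. Tumour lines often hold a low level of these transcripts without added interferon.

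Induction was seen in every p21 ON library. CDKN1A, which encodes p21, read 1257, 1187 and 1355 normalised counts in p21 OFF and 40470, 43863 and 46739 in p21 ON, a 34.5-fold difference (limma with Benjamini-Hochberg adjustment, adjusted p = 1.12e-19). A normalised count is the number of reads on a gene divided by a size factor of its library. The libraries held 12795490 to 21975045 reads on genes. The library of p21 OFF replicate 1, the shallowest, stood apart from the others of its group. Its chi-square per gene against them was 8.48 and 9.28, where the other replicate pairs of either group gave 2.71 to 3.97. Named genes that lost their call without this library are given without it. Of 10 osteoblast lineage markers 7 passed the filter on low values, with ALPL at 35363 to 38901 normalised counts, while SPP1 and COL1A2 were below 5 and BGLAP had no read. Of 7 blood immune cell markers only CD68 passed, TYROBP had no read, and the list summed to 803 to 876 normalised counts in p21 OFF and 823 to 939 in p21 ON. The epithelial list summed to 328 to 398 and 317 to 357, most of it EPCAM at 301 to 374 and 292 to 325. KRT5 also passed the filter, CDH1 reached at most 3.91 and KRT14 had no read. The endothelial list summed to 63 to 69 and 73 to 105, with CDH5 near 0. VWF of the endothelial list was higher (log2 fold change 0.50), IBSP and DLX5 of the osteoblast list were lower (-0.38 and -0.26), and the part of such differences in the results below was not tested. In bulk RNA, fewer cells of a type and less RNA per cell cannot be told apart.

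Promoter sequences are shown first, because the ISRE lies in target promoters. Only windows that hold the core of an ISRE are printed, so the printed set has it by choice. They are those of called genes and of IFIT3 and IFIT5, which were not called. RefSeq promoter windows of build GRCh38.p14, with 250 bases before and 50 after a start site, were found for 35 of the 42 genes, DDX58 under its newer name RIGI. They were searched on both strands for an ISRE core, GAAA followed by any 2 bases and a second GAAA, and for a GAS motif, TTCNNNGAA, which is its own reverse complement. An ISRE core stood in 22 of the 35 genes (62.9%), against 4.38% of the 27305 genes with a window. A GAS motif stood in 9 (25.7%), against 9.38%. An ISRE core was present in 5 of the 6 genes higher in p21 ON and in all 3 that were lower, and in 11 of the 21 genes with a window that were tested and not called. The core thus stood in promoters of genes that moved in either direction, and a match describes letters and not a bound site. STAT2, which was called higher and is not printed, IRF9 and ADAR were among the genes whose window lacked the core.

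The windows below were placed on GRCh37, the build of the reads, by an exact match, with position 1 at the start site and capitals for ISRE cores. In opposite orientation the core reads TTTC, any 2 bases and TTTC. IFIT1 at chr10:91152261-91152290, plus strand, covers -119 to -90 and holds 2 cores in opposite orientation to the gene, in an intron of LIPA on the other strand. IFIT3 at chr10:91087578-91087661, plus strand, covers -176 to -93 with 2 cores, inside the IFIT3 and LIPA genes as annotated but outside the exons of both. IFIT5 at chr10:91174304-91174333, plus strand, covers -21 to 9 with 2 of the 3 cores of its window and touches annotated exons of IFIT5 and LIPA. These 3 neighbours share the motif, and IFIT1 alone of them passed the test described below.
IFIT1: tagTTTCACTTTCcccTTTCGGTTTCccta
IFIT3: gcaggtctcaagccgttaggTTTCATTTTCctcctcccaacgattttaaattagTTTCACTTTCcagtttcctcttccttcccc
IFIT5: agTTTCGATTTCttaagTTTCAGTTTCtga

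Of the genes higher in p21 ON, the printed windows of MX1 at chr21:42792486-42792515 (plus strand, 2 to 31) and EIF2AK2 at chr2:37384110-37384139 (minus strand, -16 to 14) touch an annotated exon of their own gene. The window around the nearer of the 2 cores of IFI44L, at chr1:79086050-79086079 (plus strand, -83 to -54), also touches an annotated exon of that gene. HERC5 at chr4:89378125-89378225 (plus strand, -145 to -45) holds 3 cores, 2 of them overlapping, upstream of the gene. PARP14 at chr3:122399626-122399685 (plus strand, -60 to -1) holds a GAS motif followed by an ISRE core, both in capitals, upstream of the gene.
MX1: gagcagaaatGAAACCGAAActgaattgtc
EIF2AK2: agtccaagggGAAAACGAAActgagaacca
IFI44L: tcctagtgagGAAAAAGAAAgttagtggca
HERC5: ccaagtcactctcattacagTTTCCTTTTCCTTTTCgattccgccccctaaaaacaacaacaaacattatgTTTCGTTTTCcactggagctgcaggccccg
PARP14: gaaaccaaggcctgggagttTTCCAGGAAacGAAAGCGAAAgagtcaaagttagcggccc

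Of the genes lower in p21 ON, B2M at chr15:45003564-45003593 (plus strand, -151 to -122) holds 2 overlapping cores and touches an annotated B2M exon. IFI6 at chr1:27998767-27998879 (minus strand, -176 to -64) holds 3 cores upstream of the gene, in a non-exonic stretch of an annotated gene without a name.
B2M: actctaaGAAAAGGAAACTGAAAacgggaa
IFI6: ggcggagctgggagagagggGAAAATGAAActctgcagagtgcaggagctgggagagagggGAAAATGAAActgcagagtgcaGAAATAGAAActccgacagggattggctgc

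Across the genes, p21 induction was accompanied by small differences in both directions. Of the 42 genes, 35 passed the filter of a mean of 10 normalised counts and were tested, with 6 called higher and 3 called lower after induction (limma with Benjamini-Hochberg adjustment over 13255 genes, adjusted p below 0.05). STAT2, MX1, EIF2AK2, HERC5, PARP14 and IFI44L rose by 15.9 to 54.1%. IFIT1 fell by 22.7%, B2M fell by 15.4% and IFI6 fell by 15.0%. The 9 called were 25.7% of those tested, and 23.2% of all genes tested were called, so the share was near the background. By direction the shares were 17.1% higher and 8.57% lower, against 10.5% and 12.7% of all genes. The groups did not overlap for 17 of the 35, 12 with p21 ON above and 5 below (48.6%), against 40.4% of all genes, 19.1% above and 21.3% below. The median log2 fold change was 0.06, against 0.01 for all genes tested, and the middle 50% of the values ran from -0.06 to 0.24, against -0.14 to 0.17. On the recovered reads edgeR called the same 9 genes, with 23.0% of all genes called, and DESeq2 called 7 of them, 5 higher and 2 lower, with 19.4% of all genes called and 8.56% called higher.

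**Figure D1:**
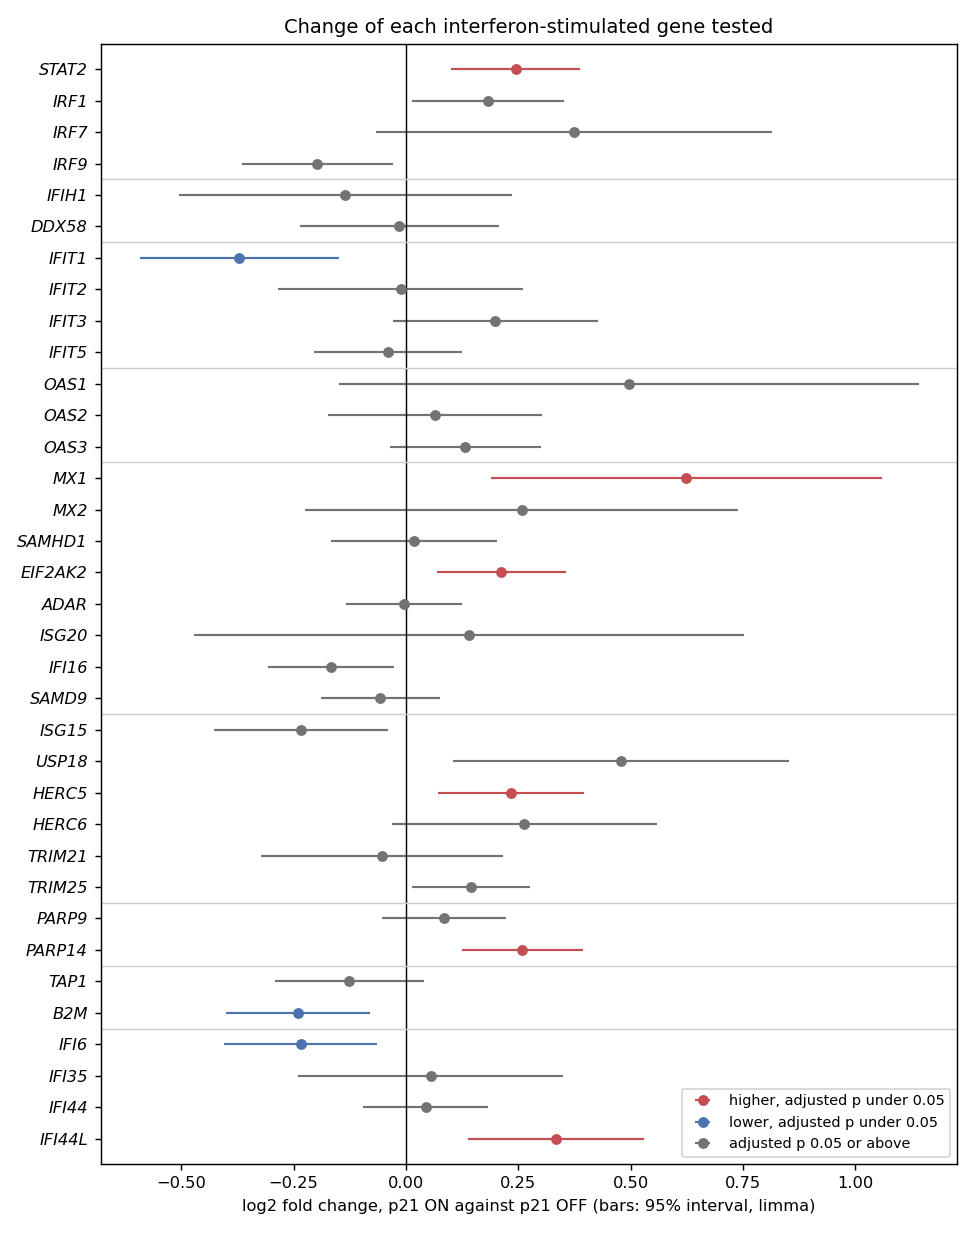
Log2 fold change, p21 ON against p21 OFF, of the 35 interferon-stimulated genes tested, with 95% confidence intervals from limma and genes grouped by role; coloured points passed an adjusted p of 0.05. The 6 genes higher and 3 lower lay between -0.37 and 0.62, and the intervals of the low-count genes OAS1, ISG20, MX2 and IRF7 were the widest.

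Among the transcription factors of the pathway, STAT2 was higher after induction and its partner IRF9 was not. STAT2 read 1355, 1460 and 1439 normalised counts in p21 OFF and 1816, 1547 and 1684 in p21 ON, a difference of 0.24 on the log2 scale (95% CI 0.10 to 0.39, limma adjusted p = 0.0158). All 3 p21 ON libraries lay above all 3 p21 OFF libraries. IRF9, which gives the complex its DNA contact, read 784, 735 and 668 and then 693, 602 and 612, overlapping between the groups (log2 fold change -0.20, limma adjusted p = 0.0821). IRF1, an activator induced by interferon gamma, read 355, 341 and 352 and then 400, 417 and 374, which did not overlap (0.18, adjusted p = 0.110). IRF7, the amplifier of interferon alpha transcription, read 40.2, 39.1 and 24.4 and then 44.2, 41.4 and 46.6, also without overlap (0.37, adjusted p = 0.207). Thus STAT2 alone of these 4 passed the limma test, and it lost its call without p21 ON replicate 1 (0.19, adjusted p = 0.126) or replicate 3 (0.24, adjusted p = 0.0619).

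The cytosolic RNA sensors did not pass the test. IFIH1 (MDA5) gave a log2 fold change of -0.14 (95% CI -0.51 to 0.24) and DDX58 (RIG-I) one of -0.01 (95% CI -0.24 to 0.21), and the groups overlapped for both. DHX58 (LGP2), a regulator of these sensors, had 1 read in the 3 p21 ON libraries and 0 reads in p21 OFF (exact Poisson 95% upper limit 3.69, counting error only).

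The IFIT genes, whose proteins bind viral RNA and stall its translation, lie side by side on chromosome 10 and gave unlike values. IFIT1, which recognises RNA with an incomplete cap, read 271, 220 and 238 normalised counts in p21 OFF and 193, 197 and 171 in p21 ON. Every p21 ON library was below every p21 OFF library, and IFIT1 fell by 22.7% (log2 fold change -0.37, 95% CI -0.59 to -0.15, limma adjusted p = 0.0171). It lost its call without p21 OFF replicate 1 (-0.29, adjusted p = 0.0519) or p21 ON replicate 3 (-0.31, adjusted p = 0.0912). IFIT3, a binding partner of IFIT1, read 148, 144 and 150 and then 162, 189 and 159, with p21 ON above throughout (0.20, adjusted p = 0.194). IFIT2 and IFIT5 overlapped between the groups, at -0.01 and -0.04. On the opposite strand IFIT2 and IFIT3 share exonic sequence with LIPA, and IFIT1 and IFIT5 do not. The strand setting of the counting is not given in the sources used here.

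Within the gene clusters, the ratio of 2 neighbours in the same library was compared for 9 pairs less than 200000 bp apart. The log2 ratio of IFIT3 to IFIT1 was -0.87, -0.61 and -0.66 in p21 OFF and -0.26, -0.06 and -0.11 in p21 ON, so that IFIT3 gained 0.57 on IFIT1. The ratio did not overlap between the groups, but the smallest p that an exact permutation test of 3 against 3 allows is 0.1, and it was 0.18 after adjustment over the 9 pairs. The ratio of IFIT1 to IFIT5 (difference -0.33) and that of IFIT2 to IFIT3 (-0.21) did not overlap either, with the same exact permutation p of 0.1. Of the other pairs, the ratio of IFI44L to IFI44 on chromosome 1 was -3.16, -3.05 and -2.85 in p21 OFF and -2.70, -2.76 and -2.72 in p21 ON, and that of PARP9 to PARP14 on chromosome 3 was lower in p21 ON by 0.18, both without overlap. HERC6 and HERC5 on chromosome 4 kept overlapping ratios (difference 0.03, exact permutation p = 0.7), as did the OAS pairs on chromosome 12 and MX2 with MX1 on chromosome 21. The share of non-overlapping ratios over other neighbouring genes was not computed. Of all single genes tested, 40.4% did not overlap between the groups.

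Of the OAS family, OAS1, OAS2 and OAS3, which make the 2-5A signal that activates RNase L, were tested and none passed. OAS3 read 362, 371 and 401 normalised counts in p21 OFF and 414, 423 and 405 in p21 ON, without overlap (log2 fold change 0.13, limma adjusted p = 0.242). OAS1 gave the highest fold change of the 3 tested, 0.50, but with 8.59 to 14.8 and 14.0 to 18.3 normalised counts the groups overlapped and the 95% CI ran from -0.15 to 1.14. OAS2 stood at 0.06. OASL was not tested, with 6 reads in p21 OFF and 4 in p21 ON.

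Of the other antiviral effectors, MX1 and EIF2AK2 were higher in p21 ON. MX1, a GTPase that traps viral nucleocapsids, read 21.4, 29.7 and 25.9 normalised counts in p21 OFF and 41.9, 36.6 and 40.9 in p21 ON. The groups did not overlap, and the log2 fold change of 0.62 (95% CI 0.19 to 1.06, limma adjusted p = 0.0366) was the largest among the 35 genes in size. The level was low and the call was lost without any one library except p21 OFF replicate 2, with an adjusted p of up to 0.126 and a log2 fold change of 0.50 to 0.73. EIF2AK2, the kinase PKR that stops translation when it binds double-stranded RNA, read 898, 946 and 997 and then 1133, 1121 and 1039. Its p21 ON libraries were all above the p21 OFF libraries (0.21, 95% CI 0.07 to 0.36, limma adjusted p = 0.0314), with no call without p21 OFF replicate 2 (0.21, adjusted p = 0.0746), p21 ON replicate 1 (0.19, adjusted p = 0.145) or p21 ON replicate 2 (0.20, adjusted p = 0.0919). On the opposite strand MX1 shares exonic sequence with TMPRSS2 and EIF2AK2 with GPATCH11, and the strand setting of the counting is not given in the sources used here.

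IFI16, a sensor of nuclear DNA, read 960, 919 and 945 normalised counts in p21 OFF and 864, 794 and 858 in p21 ON, below throughout but short of the threshold (log2 fold change -0.17, limma adjusted p = 0.0791). ADAR, which edits double-stranded RNA and restrains its sensing, gave the smallest difference of the 35 (log2 fold change -0.004, 95% CI -0.13 to 0.13). SAMHD1, a dNTP hydrolase, and SAMD9 overlapped between the groups at 0.02 and -0.06, as did MX2 (0.26, 95% CI -0.22 to 0.74) and the exonuclease ISG20 (0.14, 95% CI -0.47 to 0.75). The neighbours RSAD2 (viperin) and CMPK2 were almost silent, RSAD2 with no read in any library and CMPK2 with 3 reads in p21 OFF and 1 in p21 ON. BST2 (tetherin) had 0 and 2 reads.

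In the ISG15 system, the ligase HERC5 was called higher and the modifier ISG15 was not called, and the difference between them was not tested. ISG15 read 698, 555 and 545 normalised counts in p21 OFF and 475, 532 and 512 in p21 ON, below throughout (log2 fold change -0.23, limma adjusted p = 0.0732), and without p21 OFF replicate 1 the value was -0.12. HERC5, the main ligase for ISG15, read 681, 579 and 626 and then 718, 783 and 713, above throughout (0.23, 95% CI 0.07 to 0.40, limma adjusted p = 0.0362). HERC5 passed the test without p21 OFF replicate 1 (0.29, adjusted p = 0.00306) but not without any other single library, where the adjusted p reached 0.163. HERC6 also did not overlap between the groups, at 91.7, 68.0 and 85.0 and then 96.6, 97.5 and 97.9 (0.26, adjusted p = 0.183). USP18, which removes ISG15 and blocks the interferon receptor, read 43.96, 60.9 and 48.0 and then 58.2, 71.9 and 84.6, with an overlap (0.48, adjusted p = 0.0595). It passed the test without p21 OFF replicate 2 (0.61, adjusted p = 0.0342) or p21 ON replicate 1 (0.62, adjusted p = 0.0446). TRIM25, a ubiquitin ligase that acts on RIG-I, read 2046, 2305 and 2186 and then 2483, 2348 and 2389, above throughout (0.14, adjusted p = 0.0998), and the antibody receptor TRIM21 overlapped (-0.05).

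PARP14, an ADP-ribosyltransferase, had the lowest adjusted p of the 35 genes. It read 1699, 1849 and 1927 normalised counts in p21 OFF and 2254, 2186 and 2107 in p21 ON, above throughout (log2 fold change 0.26, 95% CI 0.12 to 0.39, limma adjusted p = 0.00756), and it lost its call only without p21 ON replicate 1 (0.24, adjusted p = 0.0568). Its relative PARP9 overlapped between the groups (0.08, adjusted p = 0.371).

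**Figure D2:**
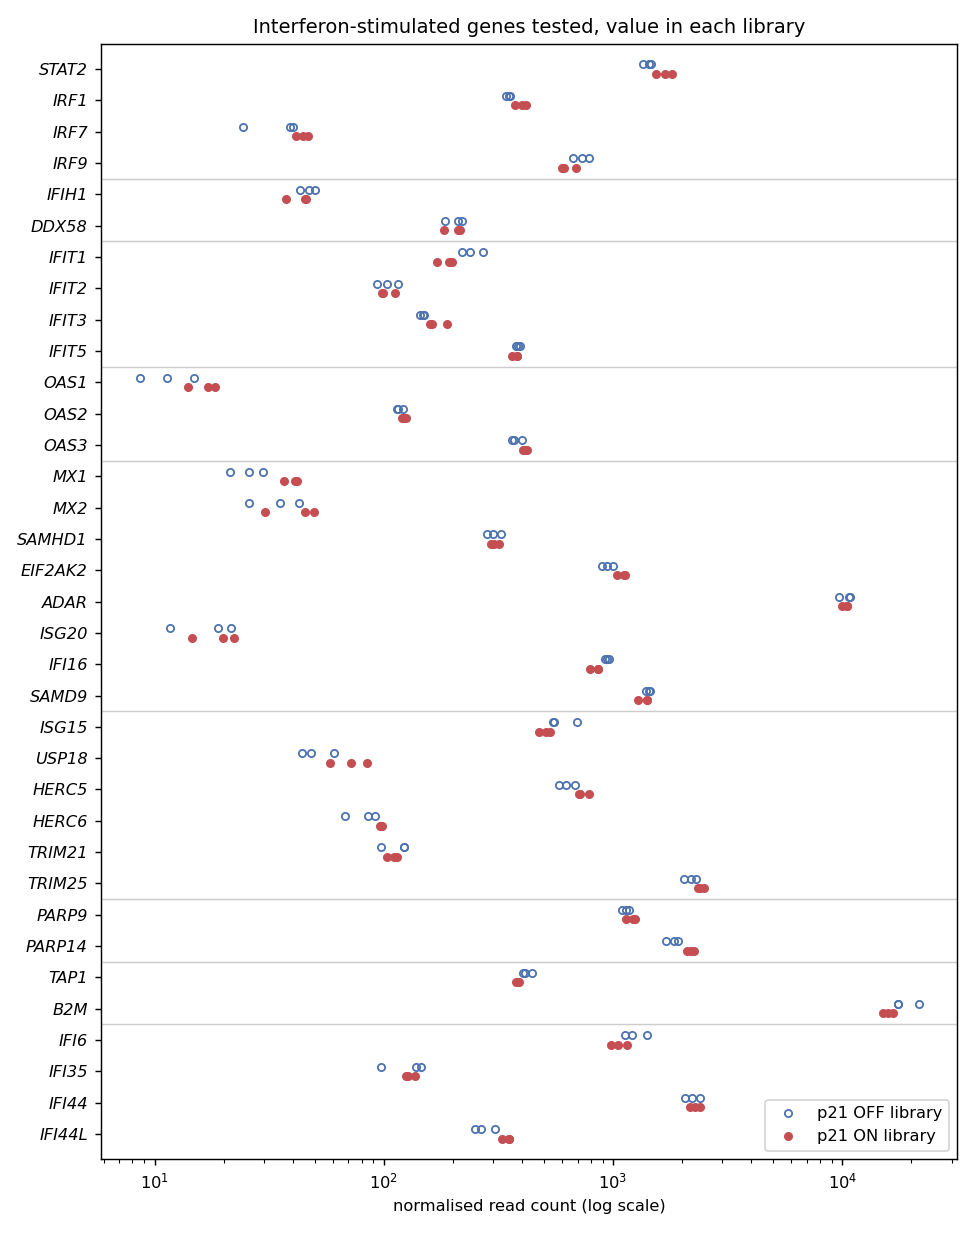
Normalised counts of the interferon-stimulated genes in each of the 3 p21 OFF and 3 p21 ON libraries, as points (log axis), for the 35 genes tested, in the order of their roles. The p21 ON points of MX1 (36.6 to 41.9) lie above its p21 OFF points (21.4 to 29.7), and those of IFIT1 (171 to 197) below (220 to 271).

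The antigen presentation genes lay on the lower side. B2M, the light chain of MHC class I, was the most abundant transcript of the 42 and read 21512, 17520 and 17448 normalised counts in p21 OFF and 15913, 16660 and 15036 in p21 ON. It fell by 15.4% with no overlap between the groups (log2 fold change -0.24, 95% CI -0.40 to -0.08, limma adjusted p = 0.0301). The library of p21 OFF replicate 1 was the highest, and without it the fall was -0.14 with an adjusted p of 0.0491. The call was lost without p21 ON replicate 1 (-0.24, adjusted p = 0.0986) or replicate 3 (-0.20, adjusted p = 0.152). TAP1, a subunit of the peptide transporter, read 412, 405 and 443 and then 378, 389 and 387, below throughout (-0.13, adjusted p = 0.259).

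Among the remaining interferon-inducible genes, IFI44L and IFI6 passed in opposite directions. IFI44L read 266, 249.2 and 306 normalised counts in p21 OFF and 352, 353 and 328 in p21 ON, above throughout (log2 fold change 0.33, 95% CI 0.14 to 0.53, limma adjusted p = 0.0157). It lost its call without p21 OFF replicate 2 (0.27, adjusted p = 0.0761), p21 ON replicate 1 (0.32, adjusted p = 0.0708) or p21 ON replicate 2 (0.31, adjusted p = 0.0534). Its neighbour IFI44 overlapped (0.04, 95% CI -0.10 to 0.18). IFI6, a mitochondrial and endoplasmic reticulum protein that restrains apoptosis, read 1402, 1130 and 1215 and then 977, 1055 and 1146, and the highest p21 ON library lay above the lowest p21 OFF library. It passed narrowly (-0.23, limma adjusted p = 0.0452) and not without p21 OFF replicate 1 (-0.15, adjusted p = 0.112), p21 ON replicate 1 (-0.18, adjusted p = 0.224) or p21 ON replicate 2 (-0.23, adjusted p = 0.101). On the same strand IFI6 shares exonic sequence with LINC02574, and the part of this in its value was not tested. IFI35 overlapped between the groups at 0.05. IFI27 was not tested, with 20 reads in p21 OFF (exact Poisson 95% interval 12.2 to 30.9, counting error only) and 21 in p21 ON (13.0 to 32.1), and XAF1 had 2 reads in each group.

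Leaving out p21 ON replicate 1 left USP18 as the only gene higher and IFIT1 as the only gene lower, and it also reduced the calls over all genes from 1393 higher and 1681 lower to 692 and 888. Without p21 ON replicate 3 there were 3 higher (EIF2AK2, IFI44L, PARP14) and 1 lower (IFI6), and without p21 ON replicate 2 there were 2 higher (PARP14, STAT2) and 2 lower (B2M, IFIT1). Without p21 OFF replicate 1 there were 5 higher and only B2M lower, and without p21 OFF replicate 3 there were 4 higher and 5 lower, with IRF9 and ISG15 added on the lower side. The 9 called genes had the same sign in every one of these fits. The mean over the 35 genes of the log2 value, centred per gene, was 0.002, -0.10 and -0.03 in p21 OFF and 0.03, 0.06 and 0.04 in p21 ON.

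The levels of the genes in p21 OFF, per kb of transcript, spanned a wide range. B2M stood at 19965 normalised counts per kb, at percentile 99.9 of the genes tested that had a length. ADAR (1571), IFI6 (1538), IFI44 (1320) and ISG15 (941) followed. The ranges of the 3 libraries overlapped for ADAR with IFI6 and for IFI6 with IFI44, but not for B2M with ADAR, for IFI44 with ISG15 or for ISG15 with IRF9 (448). STAT2 stood at 322 and PARP14 at 237, above 149, while EIF2AK2 (94.9), IFIT1 (56.5) and IFI44L (47.0) stood below it. The value of 149 is the median of the tested genes that had a length, taken over the libraries of both groups. Among the 35 genes tested, ISG20, MX2, MX1 and OAS1 formed the low end at 10.9, 10.1, 9.23 and 7.09 with overlapping ranges.

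Transcript length moved with the direction of change. Across the 12558 genes tested that had a length, the Spearman correlation of the log2 fold change with length was 0.36, given as a description of genes that share the same libraries. The correlation and the fit with the length trend taken out used all 6 libraries. Neither was repeated without p21 OFF replicate 1, the library that stood apart from its group. The 6 genes higher in p21 ON measured 2776 to 9975 nt (median 5117), the 3 lower measured 812 to 4302 nt (median 943), and the 26 not called had a median of 3219 nt. When the trend with length over all genes was taken out, B2M stood at -0.07 (limma adjusted p = 0.366), IFI6 at -0.05 (adjusted p = 0.628) and ISG15 at -0.02 (adjusted p = 0.881), and EIF2AK2 at 0.06 (adjusted p = 0.522). IFIT1 at -0.40 (adjusted p = 0.00735), STAT2 at 0.21, PARP14 at 0.15, IFI44L at 0.27, HERC5 at 0.23 and MX1 at 0.65 kept their calls, and USP18 gained one (0.56, adjusted p = 0.0251). The falls of B2M and IFI6 thus did not pass the test beyond the trend of transcripts of their length, and that of IFIT1 did. With the trend on GC content taken out instead, the 6 higher and 3 lower genes kept their calls. ISG15 was also called lower in that fit.

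**Figure D3:**
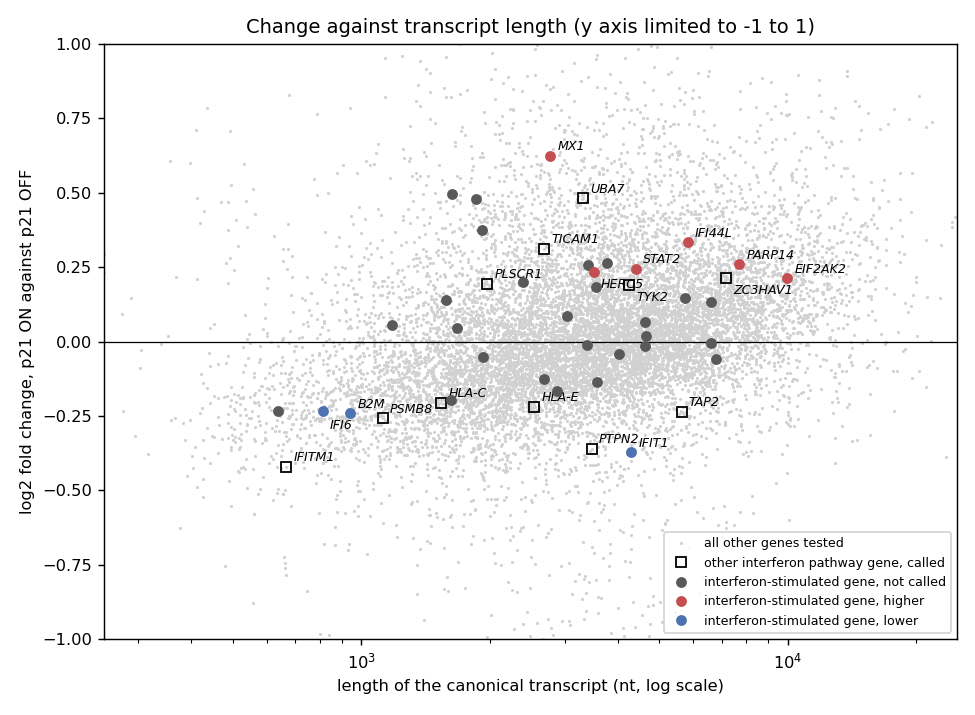
Log2 fold change, p21 ON against p21 OFF, against the length of the canonical transcript (nt, log scale) for all genes tested (grey), the interferon-stimulated genes (filled circles) and the called genes of the wider pathway (open squares); the vertical axis is limited to -1 to 1. The cloud rises with length, with B2M (943 nt) and IFI6 (812 nt) at its short end and IFIT1 (4302 nt) at -0.37 among longer transcripts.

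A further list of 76 genes of the interferon pathway, all in the table, gave 61 tested genes, of which 5 were higher and 6 lower, with a median log2 fold change of 0.05. Over all genes 10.5% were higher and 12.7% lower, so neither count was above the background. The interferon genes themselves were close to silent. None of IFNB1, IFNK, IFNL2, IFNL3, IFNA1 and IFNA2 had a read in any library, IFNG had 1 read in each group, IFNL1 had 1 read in p21 OFF only, and IFNE had 13 reads in p21 OFF and 15 in p21 ON. CXCL10, an inducible chemokine, had 0 and 1 reads. The receptors and kinases were expressed, with IFNAR1 at -0.05 (95% CI -0.18 to 0.08), IFNAR2 at 0.12 (95% CI -0.03 to 0.26) and JAK1 at -0.01 (95% CI -0.14 to 0.11), all with overlapping groups.

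TYK2, the kinase bound to IFNAR1, was the one of 8 tested receptors and kinases to pass, beside 10.5% higher and 12.7% lower over all genes. It read 2203, 2163 and 2144 normalised counts in p21 OFF and 2477, 2403 and 2550 in p21 ON (log2 fold change 0.19, limma adjusted p = 0.0239). TICAM1 (TRIF), the adaptor of TLR3, read 435, 476 and 478 and then 556, 575 and 591 (0.31, adjusted p = 0.00678) and kept its call with any one library left out. UBA7, the activating enzyme for ISG15, read 76.6, 68.0 and 65.0 and then 99.0, 97.5 and 96.9 (0.48, adjusted p = 0.0152). All 3 were above throughout, as were the zinc finger antiviral protein ZC3HAV1 (0.21, adjusted p = 0.0170) and PLSCR1 (0.19, adjusted p = 0.0338). UBA7 lost its call only without p21 ON replicate 1 (adjusted p = 0.0593), and it shares exonic sequence with MIR5193 on the same strand. With single libraries left out, ZC3HAV1 passed in 3 of 6 fits (0.18 to 0.25), TYK2 in 2 (0.17 to 0.21, those that omit p21 OFF replicate 1 and p21 ON replicate 2) and PLSCR1 in 1 (0.18 to 0.21, without p21 OFF replicate 1). ZC3HAV1 failed when p21 OFF replicate 2 was omitted, and likewise for replicates 1 and 3 of p21 ON, and with the length trend taken out it stood at 0.12 (adjusted p = 0.135).

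Of 7 negative regulators, only the phosphatase gene PTPN2 was called, beside 10.5% higher and 12.7% lower over all genes. It was lower, at 406, 398 and 375 normalised counts in p21 OFF and 306, 336 and 277 in p21 ON (log2 fold change -0.36, limma adjusted p = 0.00775). SOCS1, the feedback inhibitor of the kinases, read 105, 109 and 98.3 and then 65.2, 86.5 and 91.2, below throughout but not called (-0.37, adjusted p = 0.0705). IFITM1, a membrane protein that blocks viral entry, had the lowest adjusted p of the list and read 466, 392 and 404 and then 313, 336 and 292 (-0.42, adjusted p = 0.00315). IFITM1 shares sequence with its near relatives IFITM2 (-0.07) and IFITM3 (-0.09), which makes its value uncertain. On the same strand it also shares exonic sequence with an annotated gene without a name. With the length trend taken out IFITM1 stood at -0.21 (adjusted p = 0.0662). PTPN2 lost its call only without p21 ON replicate 3 (-0.29, adjusted p = 0.0539).

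The antigen presentation genes outside the 42 gave 4 lower and none higher of 10 tested, beside 12.7% lower and 10.5% higher over all genes. TAP2, the partner of TAP1, read 1139, 1262 and 1218 normalised counts in p21 OFF and 994, 1031 and 1046 in p21 ON (log2 fold change -0.24, 95% CI -0.37 to -0.10, limma adjusted p = 0.0152). HLA-C, a class I heavy chain, read 17836, 16148 and 16853 and then 13832, 14921 and 15337 (-0.21, adjusted p = 0.0254). Both were below throughout, as were HLA-E (-0.22, adjusted p = 0.0218) and the immunoproteasome subunit PSMB8 (-0.26, adjusted p = 0.0348). HLA-B overlapped (-0.16, adjusted p = 0.0869), and TAPBP, ERAP1 and PSMB9 were above 0 without passing. With the length trend taken out HLA-E (-0.19) and TAP2 (-0.30) kept their calls, while HLA-C (-0.10, adjusted p = 0.137) and PSMB8 (-0.11, adjusted p = 0.238) did not. The HLA genes are close in sequence, so reads may have been split between them. PSMB8 overlaps PSMB9 on the opposite strand, and TAP2 shares exonic sequence on the same strand with an annotated gene without a name. Without p21 ON replicate 1 none of these 4 passed, at -0.16 to -0.22 on the log2 scale. PSMB8 also lost its call without p21 OFF replicate 1 (-0.17, adjusted p = 0.0953), p21 OFF replicate 2 (-0.28, adjusted p = 0.0533) or p21 ON replicate 3 (-0.27, adjusted p = 0.0831). The same held for TAP2 without p21 OFF replicate 2 (adjusted p = 0.0740), for HLA-C without p21 ON replicate 2 (adjusted p = 0.0526), and for HLA-E without p21 OFF replicate 3 (adjusted p = 0.0828) or p21 ON replicate 3 (adjusted p = 0.0732).

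**Figure D4:**
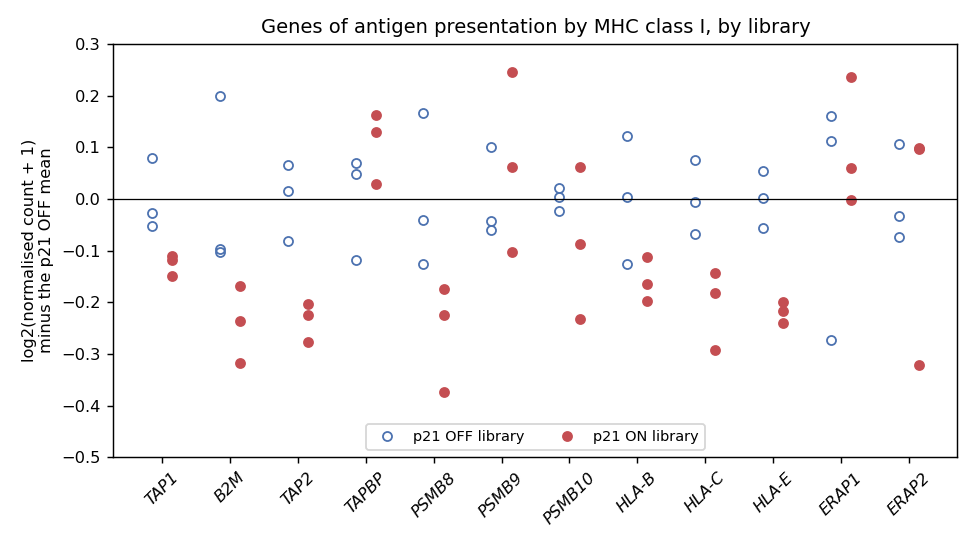
Log2(normalised count + 1) in each library minus the mean of the p21 OFF libraries, for the antigen presentation genes tested; points are libraries, p21 OFF and p21 ON. The p21 ON points of HLA-C, HLA-E, TAP2, PSMB8, TAP1 and B2M lie below their p21 OFF points, and those of HLA-B overlap them.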

How the data were processed

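PolyA RNA of SaOS2 cells was sequenced by the authors in 3 p21 OFF and 3 p21 ON libraries, prepared with a stranded mRNA kit and read single-end in 1 lane. The reads were mapped to hg19 with STAR, counted per gene with HTSeq and divided by DESeq2 size factors. The versions and the strand setting are not given in the sources used here. The table deposited by the authors holds these normalised counts, a signal of 0 or above per gene and library, and 100% of the values came out as whole reads (tolerance 0.01). Totals were 12795490 to 21975045 reads on genes, and intervals from reads cover counting error only.

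Genes with a mean of at least 10 normalised counts (13255) were fitted with limma 3.58.1 in R 4.3.3 (empirical Bayes with an intensity trend) on log2(normalised count + 1), p21 ON against p21 OFF without covariates, with Benjamini-Hochberg adjustment. Fold changes on this scale understate those of low genes. edgeR 4.0.16 (quasi-likelihood, TMM) and DESeq2 1.42.0 were run on the recovered reads, beside limma-voom, other scalings, pseudocounts of 0.1 and 10, other filters, a replicate block and each library left out. edgeR called 1401 genes higher and 1647 lower. Fits with a trend on transcript length or GC content taken out were chosen after seeing the data. The scripts were tested on simulated data. Certain listed genes are not reported here. The members and lists were chosen with earlier results of these data known. Every member could be named, each called or non-overlapping member was given per library, and of the wider pathway list those called, at most 6 in each direction by adjusted p. GENCODE release 44 in its GRCh37 version gave positions, transcript lengths and overlaps, and promoter sequences are from RefSeq (GRCh38.p14). Ratios of neighbouring genes were compared by a two-sided exact permutation test.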

Additional observations from a re-analysis of the deposited data

How the results depend on the processing

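The 6 interferon-stimulated genes called higher and 3 called lower were the same genes with edgeR, with TMM scaling, with pseudocounts of 0.1 and 10 and with at least 10 reads in every library. DESeq2 called 5 and 2, without MX1 and IFI6, and limma-voom called 6 and 2, without IFI6. With scaling by library size only, the median over all genes was 0.05 and the calls were 2034 higher and 1194 lower (63.0% higher against 45.3%), with 8 interferon-stimulated genes higher and 1 lower, their median at 0.108, and 3 other pathway genes lower. It turned the sign of DDX58 (0.0289), IFIT2 (0.0323), IFIT5 (0.00305) and ADAR (0.0397), all uncalled. Without a filter on low values 5 interferon-stimulated genes were higher and 1 was lower, with MX1, B2M and IFI6 not called. With the length trend taken out 1 was lower, and SAMHD1 (-0.0192) and TRIM21 (0.0216) turned. IFIT2 turned with limma-voom (0.00567) and with the GC trend taken out (0.00524), where DDX58 did too (0.0104).

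With the replicate block, 5 interferon-stimulated genes were higher and 3 lower, and 3 other pathway genes were higher. EIF2AK2, HERC5, TYK2, PLSCR1 and HLA-E lost their calls and USP18 gained one. The labels give the numbers no shared culture or day, and same-numbered libraries did not deviate together (correlations of -0.06, -0.02 and -0.05). It called 1407 genes higher and 1513 lower over all genes.

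When single libraries were left out, the calls over all genes ranged from 692 to 1488 higher and 888 to 1662 lower, the interferon-stimulated genes from 1 to 5 higher and 1 to 5 lower with a median of 0.0342 to 0.0974, and the other pathway genes from 1 to 5 higher and 2 to 7 lower. Uncalled genes turned in sign within these ranges: DDX58 -0.0868 to 0.0578, IFIT2 -0.0885 to 0.0669, SAMHD1 -0.0281 to 0.0697, TRIM21 -0.162 to 0.00384, ADAR -0.0565 to 0.0270, ISG20 -0.104 to 0.306, IFI35 -0.123 to 0.163 and IFI44 -0.00597 to 0.0974. The cause of these moves was not tested. Depth limits the 7 genes below a mean of 10, and the 95% intervals of the tested genes reached from 0.13 to 0.65 on either side of the log2 fold change.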
